A study of Mus musculus with 4 samples.

Results

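EEC-PRE is the name the authors gave to 542 of 15234 kept cells from sorted mouse duodenal crypts. The cells were taken from the deposited per-cell tables by that name and matched by library and barcode to the raw matrices. The name is printed as deposited, and its usual reading is enteroendocrine precursor. Single-cell 3' v3.1 libraries were made from 2 WT and 2 APC-KO samples of duodenal epithelium. WT samples carried Atoh1CreER-T2;R26RTom and APC-KO samples carried Atoh1Cre;Apcfl/fl;R26RTom per the sample labels, whereas the series' design text gives the CreER-T2 form of the driver for both. All mice received 2 doses of tamoxifen (1 mg/mL, intraperitoneal) 24 h apart, and crypt cells were taken 12 h after the second. Both genotypes therefore carried a Cre driver at Atoh1, a factor of secretory cells, and the R26RTom reporter, and living TOM+ cells were sorted. The sort set which cells entered the libraries. No age, animal or batch was read from the labels. Nothing there says that the libraries came from separate animals, so p-values measure only the spread between these samples, which may be technical.

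Enteroendocrine cells are the hormone-secreting cells of the gut lining and arise in the crypt from Atoh1-expressing secretory progenitors. A transient pulse of the basic helix-loop-helix factor Neurog3 starts the endocrine programme, and Neurog3 in turn switches on Neurod1, Insm1, Pax4, Rfx6 and other factors that install the secretory machinery. Their descendants fall into serotonin-producing enterochromaffin cells and several peptide hormone cells. Notch signalling restrains this choice, and cells that express Neurog3 commonly carry the Notch ligand Dll1. In the deposited names, EC, NON-EC and SEC-PRO were the nearest comparators, and their measured genes are given below in place of an expansion of the names.

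The promoters of the factor that starts the programme and of one of its best known targets are shown because the counts of both order the EEC-PRE cells below. Each sequence runs from 250 bases before to 50 after the RefSeq start, in GRCm38.p6, 5′ to 3′ on the gene's strand, and capitals mark the E-box letters CANNTG that such factors can bind. Neurog3 lies on the plus strand (chr10:62132840-62133139) and Neurod1 on the minus strand (chr2:79456587-79456886).
Neurog3: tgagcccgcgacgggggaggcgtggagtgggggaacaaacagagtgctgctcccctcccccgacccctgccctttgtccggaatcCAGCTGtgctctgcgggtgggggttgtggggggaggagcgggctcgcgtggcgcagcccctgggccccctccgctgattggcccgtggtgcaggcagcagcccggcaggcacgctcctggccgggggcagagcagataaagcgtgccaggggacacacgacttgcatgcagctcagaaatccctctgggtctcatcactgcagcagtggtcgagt
Neurod1: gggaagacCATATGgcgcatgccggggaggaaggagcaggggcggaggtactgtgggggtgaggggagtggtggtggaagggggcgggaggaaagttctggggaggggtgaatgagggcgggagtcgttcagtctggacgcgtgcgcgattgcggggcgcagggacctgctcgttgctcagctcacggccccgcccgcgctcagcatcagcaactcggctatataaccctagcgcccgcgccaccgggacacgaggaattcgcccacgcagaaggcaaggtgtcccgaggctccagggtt
On either strand, each held 1 CANNTG and no CAGATG, which is itself one form of CANNTG. The letters CACNAG were absent from the Neurog3 window and present 1 time in that of Neurod1. CANNTG was found in 72.1% of all 27025 promoters of this length and in 13 of the 19 matched promoters of endocrine transcription factors. CAGATG was found in 17.2% of all promoters and in 3 of those 19, and CACNAG in 42.6% and in 9. These matches are letters in a window and not measured binding.

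The 4 libraries held between 54230249 and 61032126 UMIs. APC-KO replicate 1 stood apart, with 356 kept cells and 5.15% of its UMIs in kept cells, against 3821 to 6243 kept cells and 37.6% to 50.3% in the others. EEC-PRE numbered 200 cells in WT replicate 1, 130 in WT replicate 2, 15 in APC-KO replicate 1 and 197 in APC-KO replicate 2. Their median UMIs per cell were 3662, 4259, 8261 and 2548 in that order, so depth per cell differed between the 2 APC-KO libraries. Libraries shared 20 kept barcodes between pairs, and none of them belonged to an EEC-PRE cell. Apc over all kept cells lay between 77.9 and 88.2 CPM (counts scaled to a common library total) in all 4 libraries. In EEC-PRE it ranged from 75.7 to 103.6 CPM, with the lowest and the highest value in APC-KO replicate 1 and WT replicate 1. A 3' tag need not lie in the deleted part, so this level does not check the labels. EEC-PRE was compared with EC (1013 cells), NON-EC (723) and SEC-PRO (1798) inside each library that had at least 20 cells of both names, which left out APC-KO replicate 1. These 3 comparisons share the EEC-PRE counts. The authors named the cells from the same counts, so type against type is described without a test.

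Of the 4 genes that mark the name, 3 were high in EEC-PRE and Ghrl was not. Neurog3, at chromosome 10, 62133090 to 62134763 (GRCm38), measured 1915 and 1631 CPM in the WT libraries (replicates 1 and 2), against 2170 and 1275 CPM in those of APC-KO. All 4 values lay above every EC library used (508 to 677 CPM), NON-EC library (298 to 363 CPM) and SEC-PRO library (24.5 to 35.1 CPM). Neurod2, a related factor, measured 228, 200, 219 and 164 CPM in the same order, with no overlap with EC (45.6 to 105 CPM) or NON-EC (82.4 to 125 CPM). Nkx2-2, a homeobox factor needed for hormone cell fates, measured 459, 434, 261 and 210 CPM and overlapped the range of NON-EC (225 to 496 CPM). Ghrl, which encodes the hormone ghrelin, measured 31.0, 28.8, 8.41 and 14.0 CPM, against 11960 to 18810 CPM in NON-EC. Barcodes with 50 UMIs or fewer, which hold free RNA, gave 166 to 370 CPM of Ghrl, above the EEC-PRE level in each library. The group was therefore Neurog3-high, and Ghrl went against its use as a marker of the name.

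A gene was counted as higher or lower only if its log2 CPM differed by over 1 in the same direction in all 3 libraries used. Against EC, 350 of 8278 genes were higher in EEC-PRE (4.23%) and 617 lower (7.45%), 11.7% in all. Against NON-EC, 276 of 7731 were higher (3.57%) and 475 lower (6.14%), 9.71% in all. Against SEC-PRO, 787 of 9337 were higher (8.43%) and 799 lower (8.56%), 17.0% in all. With scaling by library size alone the median of all genes shifted from -0.01 to -0.18 against EC and from 0.00 to -0.25 against NON-EC, and the counts became 232 higher and 740 lower against EC and 130 higher and 654 lower against NON-EC.

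**Figure D1:**
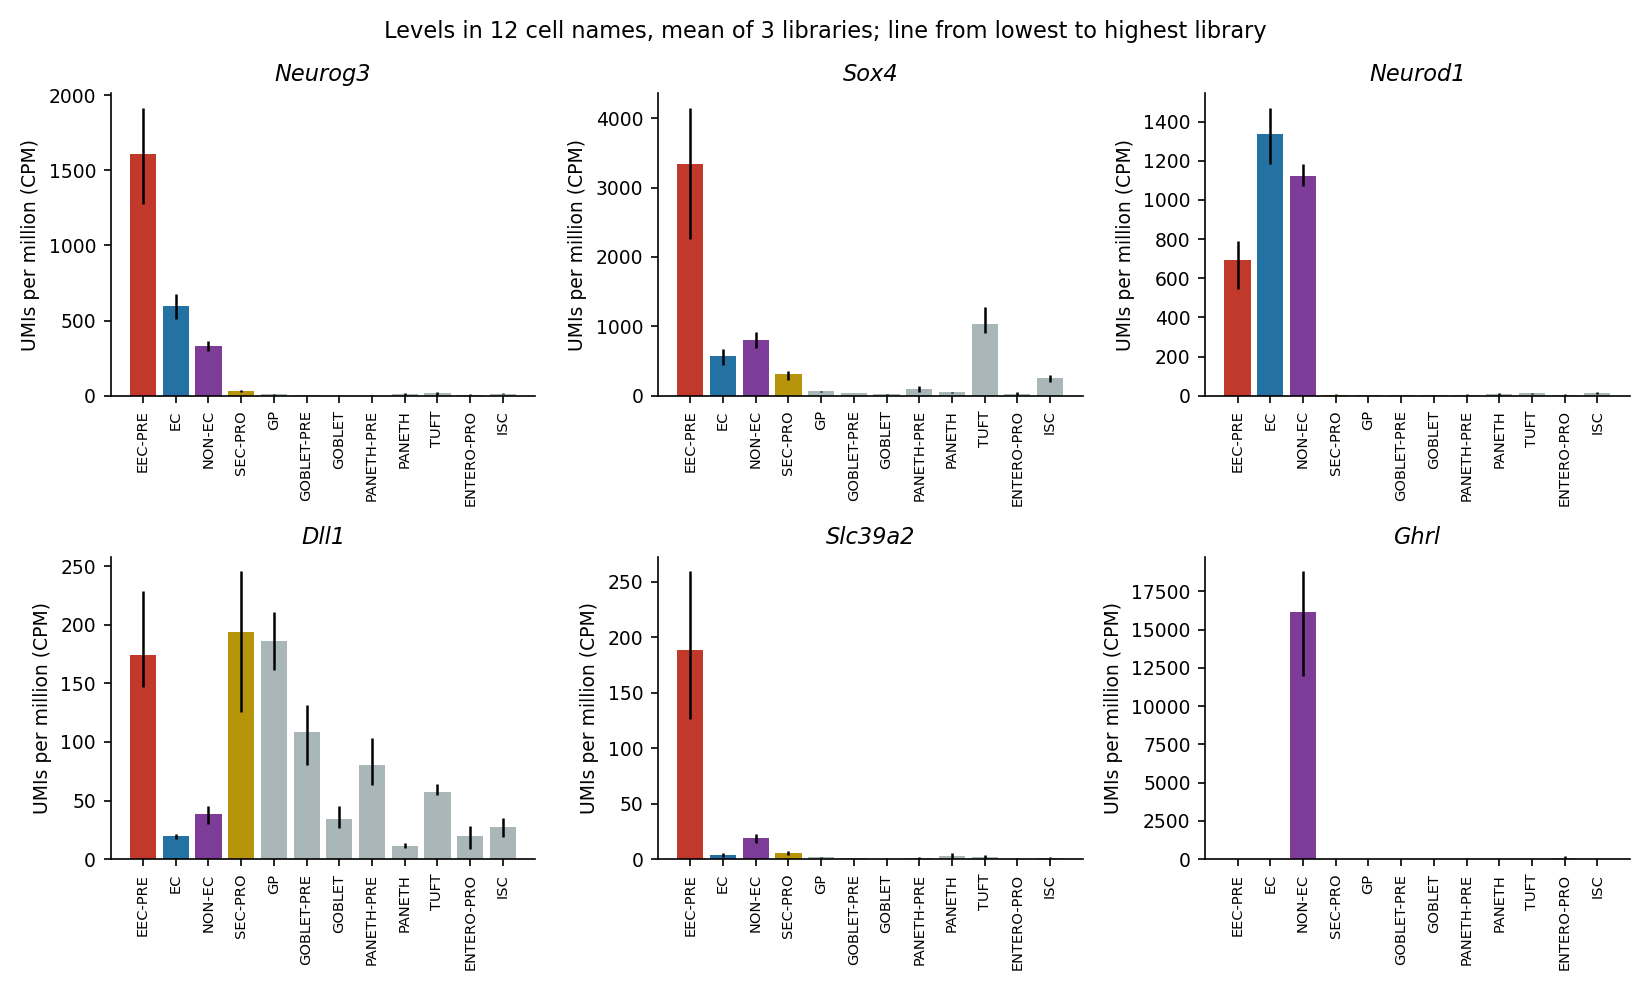
Mean CPM (y axis, linear from 0) of 6 genes in the 12 deposited cell names (x axis), over the 3 larger libraries, with lines from the lowest to the highest library. Neurog3, Sox4 and Slc39a2 stand highest in EEC-PRE, Neurod1 is higher in EC and NON-EC, Dll1 lies at like levels in EEC-PRE, SEC-PRO and GP, and Ghrl is high in NON-EC alone among the 12.

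Many genes of early endocrine commitment were higher in EEC-PRE than in its endocrine neighbours. Of 13 measured, 9 were higher than in EC (median log2 difference 1.43, all genes -0.01), 6 of 12 were higher than in NON-EC (median 1.16, all genes 0.00) and 10 of 13 were higher than in SEC-PRO (median 3.40, all genes -0.02), with none lower. With library size alone 8 were higher than in EC. The counts against EC and SEC-PRO include Neurog3 and Neurod2, which mark the name, and that against NON-EC includes Neurog3. Sox4, an SRY-box factor of endocrine progenitors on chromosome 13 (28948919 to 28953713), measured 3618 and 4149 CPM in the WT libraries and, in those of APC-KO, 4038 and 2254 CPM. The lowest of these exceeded the highest EC (666 CPM), NON-EC (925 CPM) and SEC-PRO (354 CPM) library. The log2 difference of Sox4 was 2.67 ± 0.114 (SD, n = 3) against EC, 2.26 ± 0.467 against NON-EC and 3.40 ± 0.187 against SEC-PRO. That of Neurog3 was 1.59 ± 0.046, 2.52 ± 0.156 and 5.68 ± 0.225 in the same order. Neurog3 in the other names averaged from 15.9 CPM in TUFT to 0.41 CPM in GOBLET.

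The corepressor genes Rcor2 and Cbfa2t3 and the stress and growth arrest gene Gadd45a were higher in EEC-PRE than in all 3 comparators. Rcor2 measured 184, 205, 177 and 126 CPM in the 4 libraries, against means of 46.0 CPM in EC, 39.2 CPM in NON-EC and 6.70 CPM in SEC-PRO. Cbfa2t3 measured 451, 432, 454 and 369 CPM, against 136, 223 and 159 CPM. Gadd45a measured 961, 1156, 724 and 422 CPM, against 363, 264 and 29.5 CPM. APC-KO replicate 2 was the lowest library for each of these genes. Tox3, a high mobility group box gene, was higher than in EC (log2 difference 1.43) and SEC-PRO (2.45) and close to NON-EC (0.36 ± 0.256). Btg2, an antiproliferative gene, was within 0.19 of both endocrine names and 1.77 ± 0.123 above SEC-PRO. The neuronal tubulin Tubb3 behaved alike, at 0.05 against EC, 0.55 against NON-EC and 5.48 against SEC-PRO.

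Endocrine transcription factors split by the comparator. Against SEC-PRO, 16 of 21 measured were higher and 2 lower, with a median of 4.19 (all genes -0.02). Against EC, 3 of 22 were higher (Neurog3, Neurod2, Sox4) and 7 lower, with a median of -0.38. Against NON-EC, 3 were higher (Neurog3, Pax4, Sox4) and 9 lower, with a median of -0.45. Neurod1, the direct Neurog3 target on chromosome 2 (79452521 to 79456751), measured 736, 545, 623 and 792 CPM. These values lay below all EC (1181 to 1470 CPM) and NON-EC libraries (1073 to 1181 CPM) and above SEC-PRO (1.80 to 7.83 CPM), with log2 differences of -0.79 ± 0.156, -0.46 ± 0.238 and 6.88 ± 0.575.

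Factors that act next to or just after Neurog3 were present in EEC-PRE, some above the levels of EC and NON-EC. Insm1, a zinc finger repressor, measured 715, 887, 564 and 285 CPM, against means of 367 in EC and 362 in NON-EC, with differences of 0.89 ± 0.159 and 1.01 ± 0.132. Pax4, a paired homeobox factor, measured 135, 148, 143 and 82.2 CPM and differed from EC by 0.34 ± 0.246 and from NON-EC by 1.501 ± 0.181, past 1 in all 3 libraries. Rfx6, a winged helix factor of endocrine cells, measured 240, 187, 252 and 131 CPM and differed from EC by -0.20 ± 0.359. The zinc finger genes Myt1 and St18 and the winged helix gene Rfx3 also lay within 1 of both endocrine names and between 2.97 and 6.65 above SEC-PRO. Foxa2, a forkhead factor, averaged 96.4 CPM and was not past 1 in all libraries against any comparator.

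Factors of later subtypes were low. Pax6, a factor of hormone gene expression, averaged 1.48 CPM in EEC-PRE, 91.2 in EC and 310 in NON-EC. Isl1, a LIM homeobox factor, measured 49.8, 66.6, 16.8 and 31.5 CPM against a NON-EC mean of 1392 CPM, and differed from EC by 0.55 ± 0.072. Fev, a factor of serotonin cells, measured 74.0, 32.4, 50.5 and 31.5 CPM against 446 in EC. Runx1t1 measured 74.0, 43.2, 135 and 56.0 CPM against 390 in EC. No UMI of Lmx1a or Hhex was found in the EEC-PRE cells. Mlxipl averaged 74.1 CPM and was lower than in NON-EC (-1.78), and Foxa1 averaged 28.6 CPM and was lower than in EC (-1.90).

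The products of mature endocrine cells were the lowest group. All 10 measured genes of granins and prohormone processing were lower than in EC (median -4.51, all genes -0.01), 9 of 10 were lower than in NON-EC (median -4.98), and all 4 measured against SEC-PRO were higher (median 3.23). Chgb, chromogranin B of secretory granules, measured 477, 88.2, 25.2 and 381 CPM in the 4 libraries, against 49380 to 60620 CPM in EC. The libraries spread widely, and the log2 difference was -7.57 ± 1.318 against EC and 2.16 ± 0.335 against SEC-PRO. Chga, chromogranin A, measured 164, 166, 67.3 and 156 CPM, with differences of -5.26 ± 0.108 against EC, -2.87 ± 0.150 against NON-EC and 3.83 ± 1.339 against SEC-PRO. Pcsk1, a prohormone convertase, was between EC and SEC-PRO as well, at -1.63 ± 0.397 and 3.51 ± 0.529.

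Hormone genes were low in EEC-PRE, and Ghrl and Sct lay below their levels in free RNA. All 8 measured peptide hormones were lower in EEC-PRE than in NON-EC (median -6.58), and 3 of 5 were lower than in EC. Sct, the secretin gene, measured 90.2, 110, 101 and 71.7 CPM, and barcodes with 50 UMIs or fewer gave 137 to 279 CPM. Cck, the cholecystokinin gene, measured 105, 52.2, 194 and 170 CPM, against 60.3 to 128 CPM in such barcodes and 3789 to 5975 CPM in NON-EC. The EEC-PRE level of Cck lay above that of free RNA in the APC-KO libraries and below it in the WT libraries. CPM in such barcodes is a share of free RNA and not the amount that it adds to a cell. Whether the Cck counts of EEC-PRE were background was not tested. Of 15 measured enterochromaffin genes, 12 were lower than in EC, led by Tac1 (-9.62), Tph1 (-8.78), the enzyme that commits tryptophan to serotonin, and Reg4 (-7.18). The exception was Slc39a2, a zinc transporter that was placed on this list and was higher. Ddc, the decarboxylase that completes serotonin, measured 518, 394, 345 and 313 CPM, within 1 of EC (-0.85 ± 0.270) and 4.20 ± 0.602 above SEC-PRO.

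Genes of vesicle release and ion channels gave the same order of names. Of 18 measured, 10 were lower than in EC and 11 lower than in NON-EC, and 8 of 11 measured against SEC-PRO were higher, with medians of -1.75, -1.77 and 3.69. Syt13, a synaptotagmin, was the most even member, at 153 to 160 CPM in the 3 larger libraries, 0.36 ± 0.135 above EC and 6.15 ± 0.407 above SEC-PRO. Cacna2d1, a calcium channel subunit, was lower than EC (-2.12 ± 0.105) and higher than SEC-PRO (5.75 ± 0.525).

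**Figure D2:**
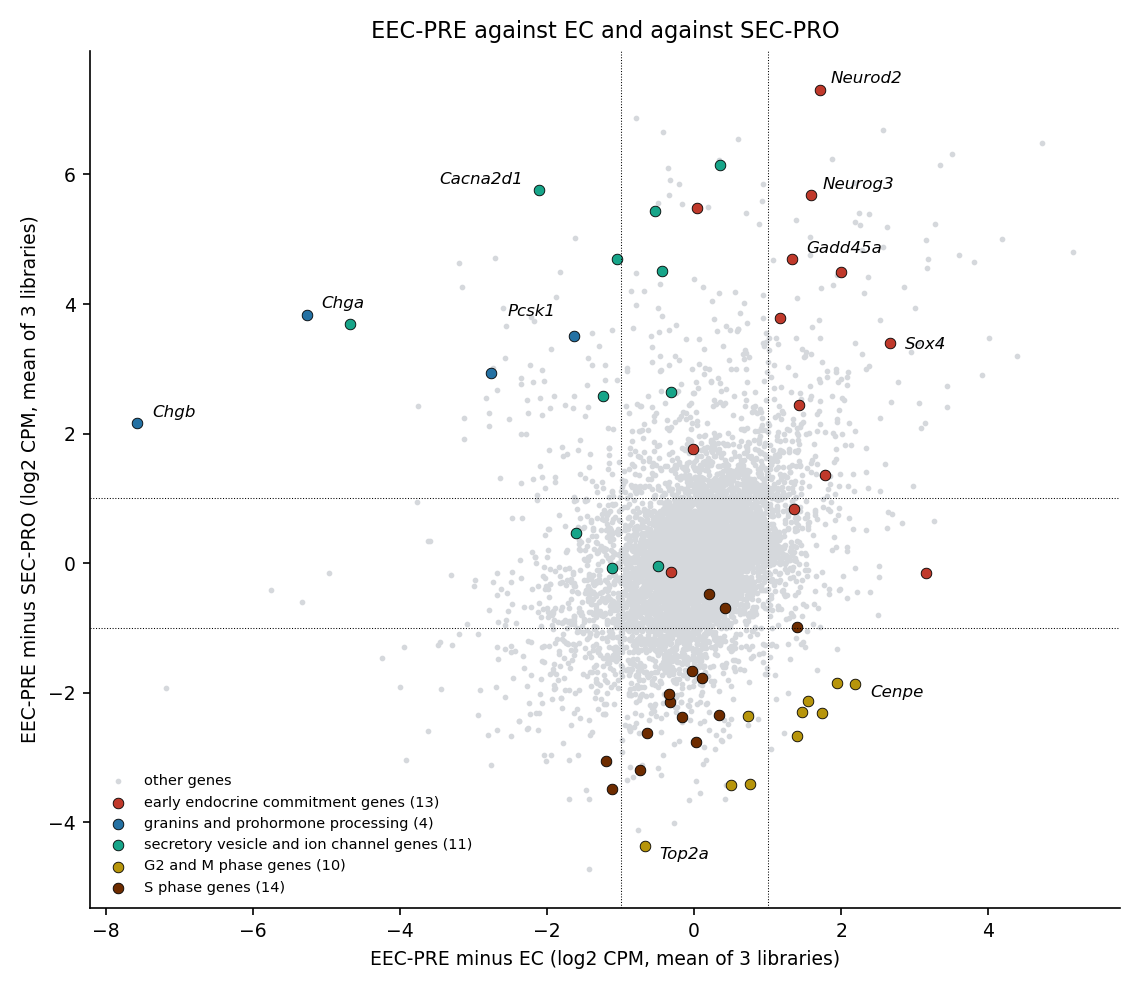
Each point is a gene, with the mean log2 CPM difference of EEC-PRE from EC on the x axis and from SEC-PRO on the y axis over 3 libraries, which share the EEC-PRE counts, and dotted lines at 1 and -1. Early endocrine commitment genes (red) sit high and to the right, granin genes (blue) high and to the left, and S phase and G2 and M phase genes (brown and gold) low.

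Among Notch pathway genes the ligand Dll1 stood out. Dll1, on chromosome 17 (15367354 to 15376872), measured 148, 229, 92.5 and 147 CPM in EEC-PRE, above all EC (17.1 to 21.4 CPM) and NON-EC libraries (30.1 to 45.1 CPM) and inside the range of SEC-PRO (126 to 246 CPM) in the 3 libraries used. The log2 difference was 3.15 ± 0.264 against EC, 2.33 ± 0.262 against NON-EC and -0.15 ± 0.381 against SEC-PRO. Lfng, a glycosyltransferase that modifies Notch, was higher than EC (2.53) and NON-EC (2.09), and Hes6, a Hes family member, was higher than EC (1.36). In all, 3 of 9 measured Notch genes were higher than in EC (4.23% of all genes) and 2 of 7 higher than in NON-EC (3.57% of all genes). Against SEC-PRO, 2 of 10 (Mfng, Rbpj) were higher and 1 (Atoh1) lower, where 8.43% of all genes were higher and 8.56% lower. The counts against SEC-PRO are too small to set apart from those shares. Dll4, the other ligand measured, differed from each comparator by less than 0.33. Rbpj, the DNA-binding partner of Notch, measured 98.3, 93.6, 118 and 107 CPM and was 1.25 ± 0.027 above SEC-PRO.

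Atoh1, the gene that drives Cre in both genotypes, was nearly absent from EEC-PRE. It measured 2.69 and 1.80 CPM in WT, was not found in APC-KO replicate 1 and measured 10.5 CPM in APC-KO replicate 2, against 94.4 to 181 CPM in SEC-PRO. The difference from SEC-PRO was -4.78 ± 1.522. Of 10 measured secretory progenitor genes, 5 were lower than in SEC-PRO (Atoh1, Spdef, Gfi1, Creb3l1, Creb3l4) and 2 higher (Neurog3, Sox4), with a median of -2.10. Against EC, 3 of 7 were higher (Dll1, Neurog3, Sox4; median 0.77) and against NON-EC 4 of 6 (also Foxa3; median 1.83), with none lower, and those 3 genes are on the commitment list as well.

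Proliferation genes separated EEC-PRE from SEC-PRO. Of 25 S phase genes 22 were lower (median -2.62, all genes -0.02), and of 25 G2 and M phase genes 24 were lower (median -2.78), with none higher in either list. Mki67, a proliferation antigen, measured 55.2, 52.2, 8.41 and 47.2 CPM in EEC-PRE against 409 to 640 CPM in SEC-PRO. Top2a was lower by 4.37 and Rrm2 by 4.42 on the log2 scale. Against EC no S phase gene of 14 passed, but 3 of 10 G2 and M phase genes (Ccnb2, Ube2c, Cenpe) were higher, and their list's median was 1.43. Against NON-EC, 2 of 9 (Ccnb2, Cenpe) were higher, with a median of 1.37. Ccnb2, a mitotic cyclin, was 1.94 ± 0.265 above EC and -1.85 ± 0.595 from SEC-PRO. The summed level of the G2 and M phase list was 630, 637, 269 and 766 CPM in EEC-PRE, 231 to 632 CPM in EC and 3133 to 8709 CPM in SEC-PRO, and the EEC-PRE sum exceeded the EC sum of its own library in all 4.

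Genes of cell cycle exit were mixed. Against SEC-PRO, 5 of 12 were higher (Cdkn1a, Cdkn1c, Btg2, Gadd45a, Gadd45g) and Cdkn2c was lower. Cdkn1a, the inhibitor p21, measured 862, 844, 227 and 446 CPM, which was 2.94 ± 0.416 above SEC-PRO and -1.75 ± 0.224 from NON-EC. Cdkn1c, the inhibitor p57, was placed alike, at 5.41 ± 0.686 and -1.48 ± 0.246. Cdk4, a G1 kinase, was higher in EEC-PRE than in all 3 comparators, by 1.99, 1.95 and 1.38. Against EC the median of the exit list was 0.08 and its sign changed with the scaling.

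The largest differences were falls against EC and NON-EC and rises against SEC-PRO. Genes with at least 50 CPM in the higher name are given here. The largest falls against EC after Tac1 were Afp (-9.01), Tph1 and Vim (-7.58), and the largest rises were Slc39a2 (5.15 ± 0.473), Tead2 (4.39 ± 0.660), Mfge8 (4.01 ± 0.207) and Chst15 (3.91). Against NON-EC the largest falls were the hormones Gip (-9.15), Ghrl (-9.01 ± 0.763) and Sst (-8.11), and the largest rises Dpysl5 (4.21), Tead2 (3.59), Lypd1 (3.34), Slc39a2 (3.32), Trim31 (3.29) and Bcl2 (3.18). Ppp1r16b (3.91) and Laptm5 (3.36) differed as much at lower levels. Against SEC-PRO the largest rises were Neurod2 (7.31 ± 0.487), Neurod1, Miat (6.68), Myt1 and Olfm1 (6.55), and the largest falls Slfn9 (-4.88), Atoh1, Ccl9 (-4.72) and Pbk (-4.47). Tead2, a partner of the Yap coactivator, measured 152, 148, 151 and 112 CPM in the 4 EEC-PRE libraries, against 2.40 to 6.83 CPM in EC.

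Slc39a2 was among the genes most restricted to EEC-PRE across the 12 names. It lies on chromosome 14 (51892889 to 51896745) and measured 179, 259, 278 and 126 CPM, with no overlap with any library of another name, of which the highest was NON-EC at 22.7 CPM. The mean ratio to the next name was 9.84. Bcl2, a survival gene, measured 183, 227, 219 and 196 CPM, against means of 37.3 CPM in EC, 24.1 CPM in NON-EC and 41.3 CPM in SEC-PRO. Laptm5 (40.5 CPM, ratio 13.8) and Ppp1r16b (43.2 CPM, 11.7) had larger ratios at lower levels. Amotl2, a regulator of Yap (257 CPM, 5.57), Lypd1 (135 CPM, 5.61), Fzd2, a Wnt receptor (50.9 CPM, 5.42), and Cdc14b, a phosphatase (352 CPM, 5.04), followed. Of 6097 genes with at least 20 CPM in EEC-PRE, 1074 (17.6%) were highest there, and for 292 (4.79%) the lowest EEC-PRE library exceeded every library of the other 11 names. The share highest in its own name ran from 1.47% to 24.2% over the 12 names, so that of EEC-PRE was not unusual.

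Some stem cell genes differed between the names, at counts too small to set apart from the shares of all genes. Against SEC-PRO, 1 of 13 was higher (Prom1) and 2 lower (Cdca7, Igfbp4), where 17.0% of all genes passed. Against EC 2 of 10 were higher (Prom1, Slc12a2), where 11.7% of all genes passed. Against NON-EC 1 of 11 was higher (Prom1), where 9.71% of all genes passed. Prom1 was above SEC-PRO by 2.55 ± 0.144 and above EC and NON-EC by 2.01 and 2.19. Of the Wnt targets, 4 of 12 passed against SEC-PRO (Ephb3 and Prox1 higher, Ccnd1 and Lgr4 lower; median -0.67), where 17.0% of all genes did. Against EC 2 of 8 passed (Prox1 higher, Cd44 lower) and against NON-EC 2 of 10 (Cd44 and Ephb2, both lower). Prox1, a homeobox gene on the Wnt target list, measured 224, 223, 219 and 135 CPM and was higher than in EC (1.57 ± 0.423) and SEC-PRO (4.76 ± 0.644). Immediate early genes, which can respond to tissue dissociation, were lower than in EC for 8 of 13 (median -1.43), lower than in NON-EC for 3 of 12 and lower than in SEC-PRO for 1 of 15. Fos measured 244, 457, 252 and 297 CPM in EEC-PRE, against a mean of 1420 CPM in EC.

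Markers of other cell types were present in EEC-PRE, and those of goblet cells most. The 14 goblet markers summed to 12870 and 8088 CPM in the WT libraries and, in those of APC-KO, to 12560 and 27500 CPM, against 41470 to 50100 CPM in SEC-PRO. The sums for EC in the same order were 8275, 6018, 4556 and 15960 CPM, so APC-KO replicate 2 was highest in both names. No goblet marker was at 0 in any EEC-PRE library. Of the 14, 3 (Tff3, Rep15, Sytl2) were higher than in EC, and the median of the list was 0.16, with a sign that changed with the scaling. Paneth markers summed to 1085 to 4414 CPM in EEC-PRE and 952 to 4596 CPM in EC. Tuft markers summed to at most 47.2 CPM, with 6 to 15 of 15 at 0, and immune markers to at most 128 CPM, with 5 to 14 of 14 at 0. The part of these RNAs in the comparisons was not tested. No doublet caller was run.

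Cells were also counted one by one, after each was thinned to 2000 UMIs, which left out 11, 0, 0 and 26 shallower EEC-PRE cells of the 4 libraries. Intervals are exact binomial 95% intervals and cover counting error only. At least 1 Neurog3 UMI was found in 89.2% of 490 EEC-PRE cells of the 3 larger libraries (86.1% to 91.8%; 94.7% before thinning), 40.0% of EC, 28.8% of NON-EC and 2.99% of SEC-PRO cells. GOBLET cells, which served as the background, gave 0.15%, with median UMIs of 3624 to 5252 in these libraries. By library, the share in EEC-PRE was 93.7%, 90.8%, 93.3% and 83.0%. Sox4 was found in 95.7% of EEC-PRE cells, Insm1 in 64.1%, Neurod1 in 52.2% and Nkx2-2 in 46.9%, against GOBLET shares of 4.07%, 0.15%, 0.15% and 0.15%. Dll1 was found in 25.5% (GOBLET 7.41%), Slc39a2 in 28.2% (0.15%) and Bcl2 in 23.7% (0.44%).

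Products of mature cells were found in few EEC-PRE cells. Chga was found in 15.1% and Chgb in 10.6%, against 95.7% and 98.5% of EC cells and 0.87% and 3.78% of GOBLET cells. Cck was found in 11.02% (GOBLET 0.73%) and Ghrl in 4.29% (GOBLET 0.87%, NON-EC 55.6%). Sct, at 12.4%, was under its GOBLET share of 23.4% and is read as background, and so are Tac1 and Tph1, each at 0.41%. Mki67 was found in 7.14% of EEC-PRE and 52.4% of SEC-PRO cells, and Atoh1 in 0.61% against 21.5%. TUFT cells, with median UMIs of 2782 to 4714, served as the background for these and gave 4.79% and 2.66%, so Atoh1 in EEC-PRE is read as background. Muc2 was found in 32.4% of EEC-PRE, 35.2% of EC, 33.0% of NON-EC and 31.2% of TUFT cells and is not read as expression there.

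**Figure D3:**
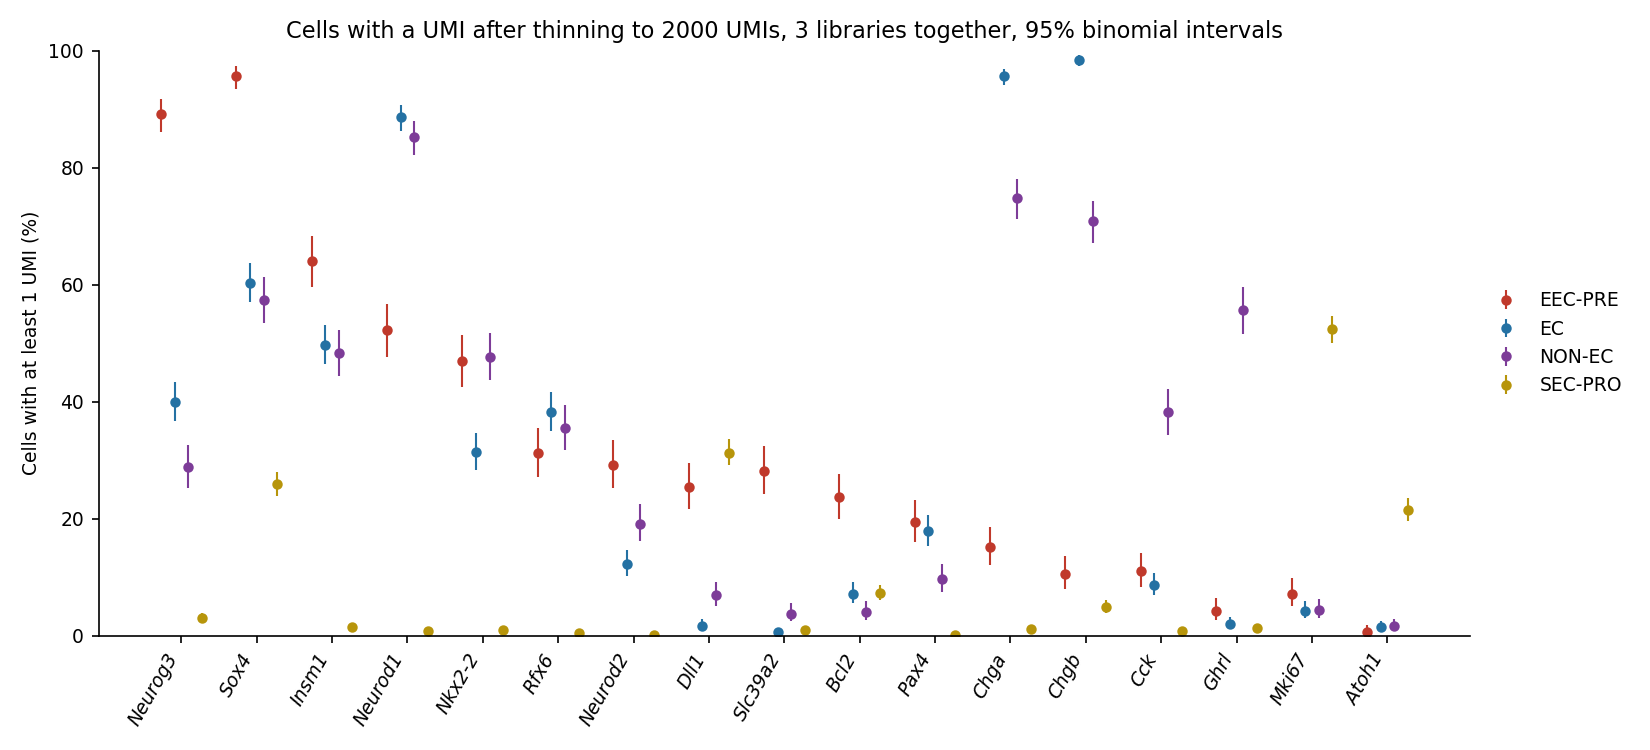
Percent of cells (y axis) with at least 1 UMI of each of 17 genes (x axis) after thinning to 2000 UMIs, in EEC-PRE, EC, NON-EC and SEC-PRO cells of 3 libraries together, with exact binomial 95% intervals. Neurog3 (89.2%) and Sox4 (95.7%) are found in most EEC-PRE cells, whereas Chga (15.1%) and Chgb (10.6%) are found in few.

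Neurod1 was found in fewer EEC-PRE cells than Neurog3. A cell with no UMI of a gene after thinning is not shown to lack its RNA. Of 505 thinned EEC-PRE cells of all 4 libraries, 246 had UMIs of both Neurog3 and Neurod1, 205 of Neurog3 alone, 18 of Neurod1 alone and 36 of neither. Of those 36, 21 were among the 171 cells of APC-KO replicate 2, which also had the highest summed goblet markers. The median cell had 3 Neurog3 UMIs after thinning and the highest had 18.

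To describe how EEC-PRE cells differ among themselves, those with at least 1 Neurod1 UMI after thinning were summed per library and compared with those that had none, with the library as a block. This split was chosen after the data had been seen, and it is a range along 1 gene and not a cell type. In the 3 larger libraries it set 113, 62 and 81 cells against 76, 68 and 90, and 70 of the 490 cells had exactly 1 Neurod1 UMI. With edgeR's quasi-likelihood test at an adjusted p of 0.05, 126 of 2741 genes were higher (4.60%) and 219 lower (7.99%) in cells with Neurod1, 12.6% in all. DESeq2 called 61 genes, and edgeR called 225 without WT replicate 1 and 183 without WT replicate 2. Median UMIs per cell before thinning were 3589, 3832 and 2523 in cells with Neurod1 and 3948, 4720 and 2847 in cells without, and summed goblet markers were 9646, 6016 and 21570 CPM against 16390, 9000 and 24610 CPM. The median mitochondrial share was 4.41%, 4.95% and 3.94% against 5.27%, 5.17% and 4.86%, and summed G2 and M phase genes were 394, 557 and 395 CPM against 862, 735 and 1033 CPM. Each of these moved with the split in all 3 libraries, and their part in it was not tested.

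Ribosomal protein genes made up a large share of the lower genes. Of 79 measured, 61 were lower and none higher with Neurod1 (median -0.34, all genes -0.02), and of 13 mitochondrially encoded genes 8 were lower. Leaving out a library gave 37 to 45 ribosomal protein genes, the fewest without WT replicate 2, and DESeq2 called 9. The mitochondrially encoded genes came to 3 without APC-KO replicate 2, 5 without either WT library and 0 by DESeq2. Ribosomal protein genes took 20.2%, 17.5% and 23.3% of UMIs in cells with Neurod1 and 23.3%, 21.6% and 26.6% in cells without. Malat1, a nuclear RNA named after its values were seen, was higher by 0.41 (edgeR adjusted p = 8.36e-07), at 19480, 16020 and 21430 CPM against 13400, 13060 and 13210 CPM. With mitochondrial and ribosomal protein genes left out of the fit, 240 genes passed.

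Granin genes rose with Neurod1 inside EEC-PRE. Chgb measured 726, 202 and 630 CPM in cells with Neurod1 and 32.9, 7.35 and 44.4 CPM in cells without, in the same 3 libraries. The 2 sets did not overlap, and the log2 difference was 4.03 (SE 0.270, edgeR adjusted p = 1.13e-14). Chga measured 266, 379 and 327 CPM against 13.2, 73.5 and 11.1 CPM, a difference of 3.30 (SE 0.316, edgeR adjusted p = 5.23e-10). All 3 measured granin and processing genes rose, including Pcsk1 (1.40), and so did 4 of 6 vesicle and channel genes (Syt13, Cplx2, Cacna1a, Cacna2d1). Cck, which lay above free RNA in the APC-KO libraries only, rose by 1.71, from 65.8, 22.1 and 83.3 CPM to 168, 105 and 340 CPM.

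Most endocrine factors rose in the same cells. Of 14 measured, 11 were higher with Neurod1 (Neurog3, Neurod2, Nkx2-2, Pax4, Isl1, Rfx3, Rfx6, Mlxipl, Myt1, St18, Runx1t1) and Sox4 was lower. Isl1 measured 106, 121 and 86.4 CPM with Neurod1 and 6.58, 14.7 and 0 CPM without, a difference of 3.76 (SE 0.596). Myt1 measured 297, 250 and 315 CPM against 65.8, 66.2 and 33.3 CPM, a difference of 2.31 (SE 0.266, edgeR adjusted p = 2.01e-08). Neurog3 itself differed by only 0.35 (SE 0.091, edgeR adjusted p = 0.00614), and Insm1 by -0.03 (edgeR adjusted p = 0.938), with 2 of 3 libraries higher. Cdkn1a rose by 1.41 (edgeR adjusted p = 5.23e-10).

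Cells without Neurod1 held more Bcl2, Dll1 and Sox4. Bcl2 measured 53.1, 72.6 and 92.6 CPM with Neurod1 and 362, 338 and 250 CPM without, and fell by 2.25 (SE 0.249, edgeR adjusted p = 8.15e-09). Dll1 measured 84.1, 129 and 92.6 CPM against 243, 287 and 233 CPM, and fell by 1.44 (SE 0.226, edgeR adjusted p = 7.93e-06). Neither gene's sets overlapped. Sox4 fell by 0.49 (edgeR adjusted p = 1.75e-06), and Slc39a2 by 0.65 (edgeR adjusted p = 0.0454). Cd74, the invariant chain of class II antigen presentation, fell by 2.08, from 362, 360 and 622 CPM to 70.8, 105 and 173 CPM. Clca3b (-2.34), Cyb5a (-2.35), Retreg1 (-2.23) and Pgd (-2.15) were the other largest falls, and Ids (3.52), Cacna2d1 (3.41) and Runx1t1 (2.96) followed Isl1 among the rises. Of the 20 genes with the largest changes, 18 kept their call without each library in turn, and Adh6a lost it without WT replicate 2 and Ehf without WT replicate 2 or APC-KO replicate 2. Of 11 goblet markers, 4 (Muc2, Tff3, Clca1, Fcgbp) were lower with Neurod1.

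**Figure D4:**
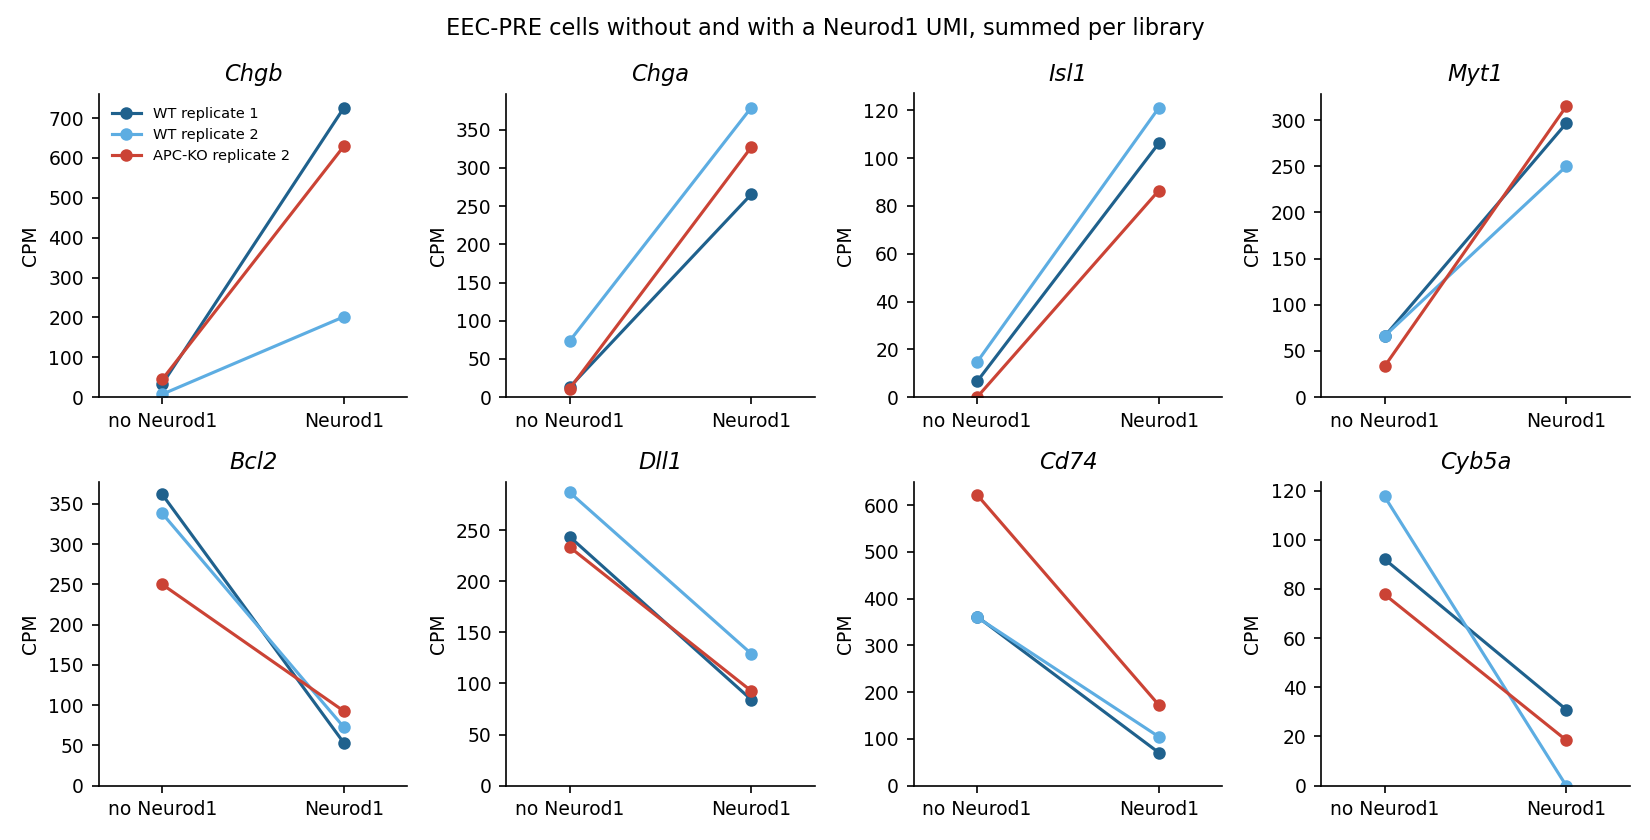
CPM (y axis, linear from 0) of 8 genes in EEC-PRE cells with no Neurod1 UMI and with at least 1 (x axis), summed per library after thinning, with a line joining the values of 1 library. Chgb, Chga, Isl1 and Myt1 are higher with Neurod1 and Bcl2, Dll1, Cd74 and Cyb5a lower, in all 3 libraries.

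A split by Neurog3 gave little. Cells with at least 3 Neurog3 UMIs (130, 75 and 73 cells) were set against cells with 2 or fewer (59, 55 and 98), also chosen after the data had been seen, and 88 cells had exactly 3 and 85 exactly 2. Of 2596 genes, 6 were lower with high Neurog3 (0.231%) and 0 higher by edgeR, with 199 at an unadjusted p under 0.05, and DESeq2 called 0. The 6 were Ccl6 (-1.84), Guca2a (-1.58), Muc2 (-1.38), Clca3b (-1.16), Hmgb2 (-0.996) and Itln1 (-0.91). Several are goblet or Paneth cell products. Summed goblet markers were 11650, 7720 and 12830 CPM with high Neurog3 and 13910, 7382 and 30870 CPM with low. Summed G2 and M phase genes were 458, 473 and 473 CPM against 856, 891 and 924 CPM. Their part in the result was not tested. Guca2a, Clca3b, Hmgb2 and Itln1 lost their call without APC-KO replicate 2. Ccl6 had a value in 7 alternative settings where Muc2 had 10, so its call was not tried under each. Ccl6 measured 34.6, 26.7 and 89.0 CPM with high Neurog3 and 76.3, 36.4 and 424 CPM with low, the last of each from APC-KO replicate 2. Counts ranged from 4 to 21 genes when a library was left out.

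The share of EEC-PRE cells overlapped between genotypes. It was 4.16% of kept cells in WT replicate 1 (3.61% to 4.76%), 3.40% in WT replicate 2 (2.85% to 4.03%), 4.21% in APC-KO replicate 1 (2.38% to 6.85%) and 3.16% in APC-KO replicate 2 (2.74% to 3.62%). The groups overlapped, with means of 3.78% ± 0.532 (SD, n = 2) in WT and 3.68% ± 0.748 in APC-KO, a difference of -0.094 percentage points (two-sided exact permutation p = 1.0). Among the cells named EEC-PRE, EC or NON-EC, the shares were 22.4%, 22.1%, 20.5% and 27.2%, a difference of 1.59 percentage points (exact permutation p = 1.0). With 2 libraries a group the smallest exact p is 0.3333, and the sort also sets these shares. Leaving out APC-KO replicate 2 turned the direction of both.

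Genotypes were compared on sums of the EEC-PRE cells of each library, 2 against 2, with edgeR. Of 6573 genes, 27 were higher (0.411%) and 6 lower (0.0913%) in APC-KO, 0.502% in all, at an adjusted p of 0.05, and 3 of the 6 were gene models without a name. Leaving out APC-KO replicate 1 and its 15 cells gave 298 genes, leaving out APC-KO replicate 2 gave 60, and leaving out WT replicate 2 gave 6. When every library was thinned to the UMI total of APC-KO replicate 1, edgeR called 0, and an unadjusted p under 0.05 was found for 147. DESeq2 called 11. No gene of 13 early commitment genes, 17 endocrine factors or 7 Wnt targets passed. With 0.502% of all genes called, lists this short would seldom hold a called gene, so these counts show no lack of difference. The median differences of these lists were -0.15, -0.19 and 0.25. Without APC-KO replicate 1 they were -0.48, -0.38 and 0.02, and without APC-KO replicate 2 they were 0.21, 0.12 and -0.75. Neurog3 averaged 1773 CPM in WT and 1722 CPM in APC-KO, and the groups overlapped for both Neurog3 and Sox4, whose values are given above. The cells were named from these same counts and Neurog3 marks the name. A like level in both genotypes may thus have been set by the naming and is not read as a lack of difference. That limit also holds for the commitment and endocrine factor lists, which include Neurog3.

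Mt2, a metallothionein that binds zinc and other metals, had the largest rise. It measured 20.2 and 3.60 CPM in WT against 50.5 and 107 CPM in APC-KO, without overlap, and its log2 difference was 2.97 (SE 0.458, edgeR adjusted p = 0.00566). H2-Eb1, a class II antigen presentation gene, measured 36.3 and 41.4 CPM against 151 and 107 CPM, a difference of 1.75 (SE 0.304, edgeR adjusted p = 0.00663). Phgr1 measured 351 and 340 CPM against 665 and 1350 CPM, a difference of 1.73 (SE 0.299, edgeR adjusted p = 0.00663). The genotypes did not overlap for any of these genes, which were picked by their calls. With 2 libraries a group such a separation is common by chance, and its share over all genes is not given here. Mt2 lost its call without APC-KO replicate 2, H2-Eb1 without either WT library and Phgr1 without WT replicate 2. In separate fits of EC, NON-EC and SEC-PRO sums the difference of Phgr1 was 1.32, 1.97 and 1.42, and that of H2-Eb1 was 0.45, 0.55 and 0.95, with the libraries shared between the fits. Mt2 had a value in SEC-PRO alone of these fits, at 2.14.

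Ribosomal protein and respiratory chain genes made up much of the rest. Of 80 measured Rpl and Rps genes, 7 rose and none fell, with a median of 0.42 (all genes 0.00) and 70 above 0. Leaving out WT replicate 2 brought that count to 0, APC-KO replicate 1 to 17 and APC-KO replicate 2 to 13, and DESeq2 size factors brought it to 1. Of 81 oxidative phosphorylation genes 5 rose and none fell, with a median of 0.25 and 59 above 0. Leaving out WT replicate 2, or using DESeq2 or its size factors, brought this count to 0. It was 18 when APC-KO replicate 1 was left out and 8 when WT replicate 1 or APC-KO replicate 2 was. Rpl38 measured 1477 and 949 CPM in WT against 2431 and 4286 CPM in APC-KO, a difference of 1.62 (edgeR adjusted p = 0.0241), and lost its call without WT replicate 2. In the separate fits its difference was 1.38 in EC, 1.46 in NON-EC and 1.44 in SEC-PRO. Ribosomal protein genes took 21.6% and 19.9% of EEC-PRE UMIs in WT and 26.4% and 24.7% in APC-KO, and 11.4%, 10.1%, 12.1% and 12.9% of EC UMIs in the same libraries. Eif3j1 (1.54), Dpm3 (1.81) and Ndufa3 (1.44) passed too and lost their calls without WT replicate 2 or without APC-KO replicate 2, Eif3j1 also without WT replicate 1. Hist1h4d passed at 1.75 although its genotypes overlapped (25.58 and 19.8 CPM in WT, 25.24 and 83.9 CPM in APC-KO), and it lost its call when any library other than APC-KO replicate 1 was left out. The difference of Hist1h4d was 1.273 in EC, 1.348 in NON-EC and 2.305 in SEC-PRO. Cck, at 105 and 52.2 CPM in WT against 194 and 170 CPM in APC-KO, rose by 1.27 (SE 0.292, edgeR adjusted p = 0.0463) and lost its call without WT replicate 2. Its difference was 0.93 in EC, -0.03 in NON-EC and -1.01 in SEC-PRO.

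The falls were few. Aim2, a DNA sensor of the inflammasome, measured 70.0 and 93.6 CPM in WT against 33.6 and 12.2 CPM in APC-KO and fell by 2.16 (edgeR adjusted p = 0.0294). Defa30, a defensin of Paneth cells, fell by 1.27 (edgeR adjusted p = 0.0457), from 548 and 742 CPM to 135 and 301 CPM, and shares sequence with other defensin genes, so its counts are uncertain. Both lost their call without WT replicate 2, and Aim2 also without APC-KO replicate 2. In the separate fits of EC, NON-EC and SEC-PRO the difference of Aim2 was -1.47, -2.02 and -2.29. That of Defa30 was -1.23, -0.43 and -0.86. Mdk, chosen after its values were seen, was at 22.9 and 32.4 CPM in WT and had no UMI in either APC-KO library (edgeR adjusted p = 0.0457). None of 14 goblet markers passed in the main fit. After cells were thinned to 2000 UMIs 3 of 13 were higher, and without the top 10% of cells by UMIs 1 of 14 was. The median difference of the goblet markers was 1.01 and became -0.13 without APC-KO replicate 2, in which they summed highest. It was 1.19 without WT replicate 1, 0.85 without WT replicate 2 and 1.18 without APC-KO replicate 1.

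Whether the genotype difference in EEC-PRE departed from that in EC was tested as an interaction over both sums of each library. Of 8521 genes, 8 had a larger APC-KO minus WT difference in EEC-PRE (0.0939%) and 1 a smaller one (0.0117%), 0.106% in all, with 454 at an unadjusted p under 0.05 and 0 called by DESeq2. Guca2a, the guanylin gene of goblet cells and enterocytes, measured 158, 95.4, 92.5 and 624 CPM in EEC-PRE and 167, 135, 51.2 and 270 CPM in EC, in the order of libraries used above. APC-KO replicate 2 alone was high in EEC-PRE, and the genotypes overlapped. Muc2, the main goblet cell mucin, measured 338, 142, 244 and 1037 CPM in EEC-PRE and 498, 342, 183 and 699 CPM in EC, with the same library high. None of the 9 genes kept its call without APC-KO replicate 2, and none of 3 genes called without the top 10% of cells by UMIs was among the 9. Without those cells the summed goblet markers were lower in both names and in every library. In APC-KO replicate 2 they were 16930 CPM in EEC-PRE and 8311 CPM in EC, in place of 27500 and 15960 CPM. In the WT libraries they were 11150 and 7797 CPM in EEC-PRE, in place of 12870 and 8088 CPM. For EC of WT they were 4805 and 3310 CPM, in place of 8275 and 6018 CPM. The part of this RNA in the lost calls was not tested.

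**Figure D5:**
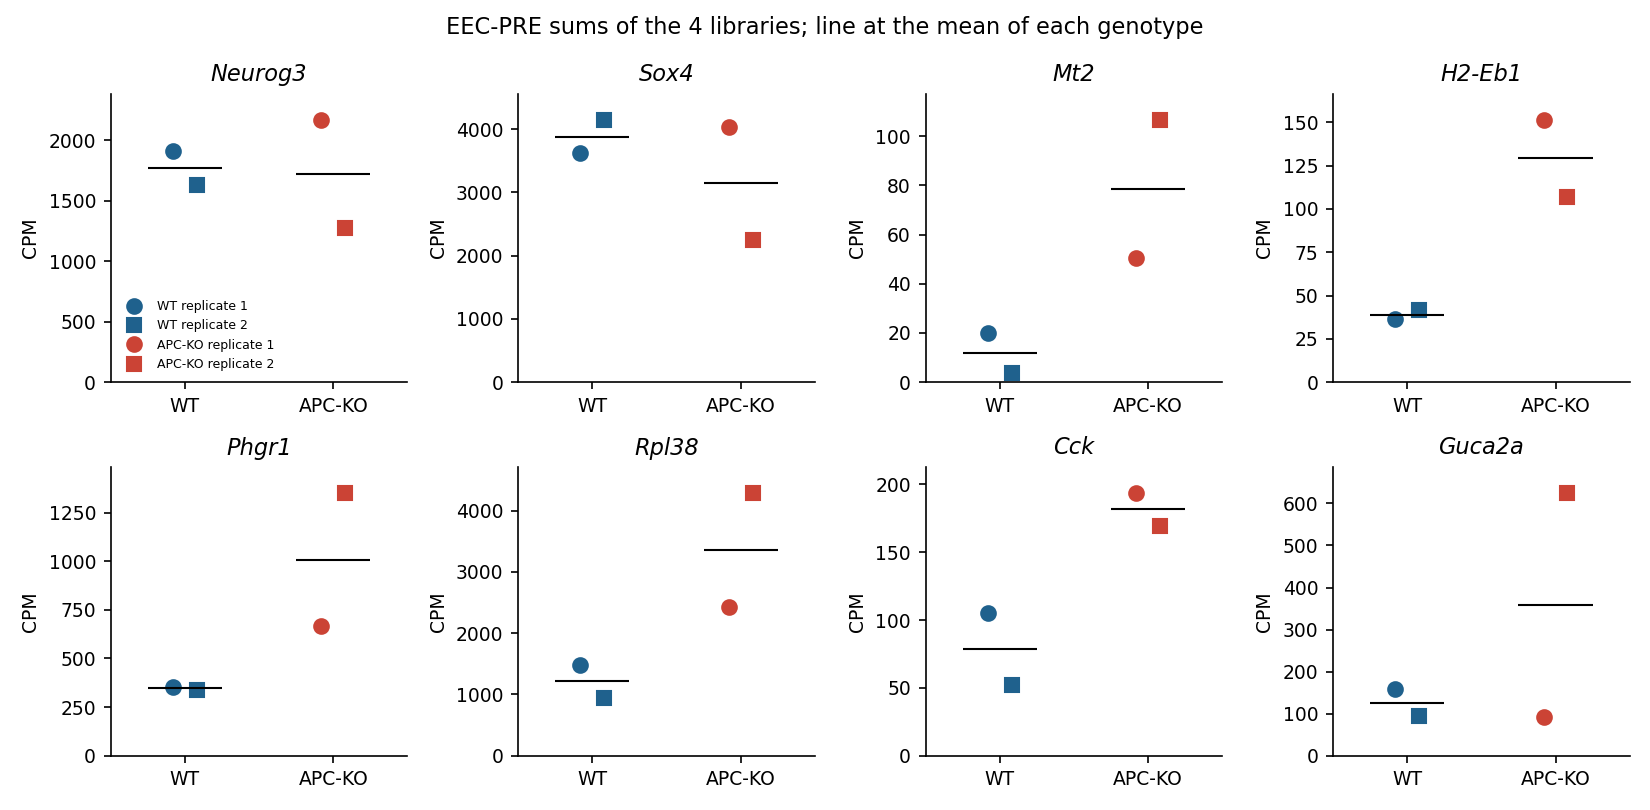
CPM in EEC-PRE (y axis, linear from 0) of 8 genes in the 2 WT and 2 APC-KO libraries (x axis), with a line at the mean of each genotype. Neurog3, Sox4 and Guca2a overlap between genotypes, whereas Mt2, H2-Eb1, Phgr1, Rpl38 and Cck, which were picked by their calls, do not.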

How the data were processed

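The members, gene lists and comparisons were chosen with earlier results of these data known. The deposited matrices hold raw UMI counts per gene and barcode, made with Cell Ranger 3.0.2 and STAR on mm10, per the submitters' processing notes. No counting setting was read from these notes. The authors' deposited per-cell tables give UMI and gene counts, the mitochondrial share in percent, and other values (barcode, library name, cell name), and how cells were filtered and named was not stated in them. All kept barcodes were found in their matrix. Coordinates come from GENCODE M21 (GRCm38), in which 31011 of 31053 gene IDs were placed, and promoters from RefSeq.

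UMIs were summed per library and name. Types were compared within a library as log2 CPM (TMM factors, prior count 2). Genotypes (at least 5 cells per library), their interaction with type (library as a block) and splits of the cells were tested with edgeR 4.0.16 in R 4.3.3 (filterByExpr, robust quasi-likelihood test, Benjamini-Hochberg at 0.05). DESeq2 1.42.0 was an alternative. The planned split of cells with and without Neurog3 could not be run, since WT replicates 1 and 2 had 12 cells without it each and APC-KO replicate 1 had 1, under the minimum of 20. Splits at 3 Neurog3 UMIs and at 1 Neurod1 UMI replaced it. Intervals used scipy 1.17.1.

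Named genes were those of the marker, commitment, endocrine factor, hormone and Notch lists with at least 20 CPM, the 10 largest rises and falls of each comparison, up to 4 of every other list and the 10 most restricted to EEC-PRE. Unnamed gene models were counted only. Alternatives covered normalization, filters, tests, depth, cells and each library left out. A few results are not reported here.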

Additional observations from a re-analysis of the deposited data

Results flagged for a closer look

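For 9 genes the APC-KO minus WT difference in EEC-PRE departed from that in EC by edgeR's test of the interaction (adjusted p 0.00018 to 0.0264). The log2 difference of differences was 3.42 for Ier3, 2.92 for Ccl9, 2.68 for Id3, 1.86 for Ccl6, 1.505 for Guca2a, 1.45 for Muc2, 1.22 for Agr2, 0.89 for Spink4 and -1.10 for Ttr. Muc2, Agr2, Spink4, Ccl6 and Guca2a are on the goblet marker list, and each was highest in APC-KO replicate 2 in EEC-PRE.

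Id3, an inhibitor of basic helix-loop-helix factors named here after its values were seen, had another pattern. In EEC-PRE it measured 10.8 and 7.20 CPM in WT against 25.2 and 31.5 CPM in APC-KO, and in EC 230 and 326 CPM against 154 and 142 CPM. The genotypes did not overlap in either name and moved in opposite directions, on 33 EEC-PRE UMIs in all. With 2 libraries a group such a separation is common by chance. Ier3, an immediate early gene, measured 8.08 and 10.8 CPM in WT against 50.5 and 19.2 CPM in APC-KO in EEC-PRE, and 33.5 and 46.0 CPM against 10.98 and 10.2 CPM in EC. These values rest on 6, 6, 6 and 11 UMIs in EEC-PRE and 42, 43, 3 and 9 in EC, in the same order. Ttr, the transthyretin gene, measured 287 and 270 CPM in WT against 328 and 170 CPM in APC-KO in EEC-PRE, and 152 and 116 CPM against 326 and 196 CPM in EC.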

How the results depend on the processing

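The genotype count of 33 genes was 11 with DESeq2 size factors or the DESeq2 test, 84 without a filter, 7 without mitochondrial and ribosomal genes, 10 in cells with at least 2000 UMIs, 16 after thinning cells, 4 in 1 fit with EC, NON-EC and SEC-PRO, 0 with libraries thinned to APC-KO replicate 1, and 6 to 298 with a library left out. Over 6573 genes the deviations of WT replicate 1 and APC-KO replicate 1 correlated at -0.08. With 15 EEC-PRE cells in APC-KO replicate 1, this value cannot show whether libraries of the same number were paired. The replicate block gave 59 genes. The interaction (9 genes) gave 0 with DESeq2, 15 without a filter, 3 without the top 10% of cells by UMIs, where Spink4 reversed to -0.17, and 4 to 35 with a library left out. The Neurog3 split (6) gave 0 with DESeq2, 13 without a filter, 10 without the top 10% of cells, 11 with all UMIs, 19 for at least 4 UMIs against 1 or fewer, and 4 to 21 with a library left out. The Neurod1 split (345) gave 61 with DESeq2, 614 with all UMIs and 183 to 258 with a library left out.

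Counts higher and lower past 2 on the log2 scale were 46 and 228 against EC, 32 and 158 against NON-EC, and 286 and 161 against SEC-PRO. With library size alone 232 were higher than EC and 130 higher than NON-EC. WT libraries alone, which is also the setting without APC-KO replicate 2, gave 437 and 718 against NON-EC and 1203 lower than SEC-PRO; with a library left out these ranged from 316 to 437, 544 to 718 and 920 to 1203. Against SEC-PRO, thinning gave 518 higher, and libraries with at least 5 cells 488 higher and 360 lower. The difference in share of kept cells (-0.094 points) ranged from -0.62 to 0.44 with a library left out (0.28 without WT replicate 1), and that among endocrine cells (1.59) from -1.72 to 4.91. Depth is limited most in APC-KO replicate 1, with 118874 EEC-PRE UMIs.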
